A study of Mus musculus with 12 samples.

Results

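ORR1 elements are long terminal repeats (LTRs) of the mammalian apparent LTR retrotransposon group, MaLR, and their RNA was measured in testes of Mael-/- mice before and after immunoprecipitation of L1 ORF1p. The members were taken by name, as the repeats listed in the family ERVL-MaLR whose name begins with ORR1. They comprise 29 of the 1528 repeat names in the table of repeat subfamilies, 14 for LTRs and 15 for internal parts (written -int), and 31468 of the 781637 single repeat loci in the locus tables, or 4.03%. The letters A to G in the names are subfamilies of ORR1. The study asked which RNAs are in complexes with ORF1p, the RNA-binding protein of the L1 retrotransposon. It has 12 RNA-seq libraries in 4 groups of 3, all from testes of C57BL/6 mice of 3 months of age, and all of genotype Mael-/-, the controls included. TOTAL is RNA of the whole testis extract, without antibody. INPUT is RNA of pooled sucrose gradient fractions 5 to 8 of that extract with EDTA, also without antibody. IP was pulled from INPUT with an antibody against L1 ORF1p, and BO (beads only) is what beads without antibody took from the same material. With 1 genotype, no comparison here bears on the loss of Mael itself, and the labels do not say whether replicates came from separate animals, so p-values measure the spread between these libraries, which may be technical.

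MaLR elements are non-autonomous retrotransposons related to the endogenous retroviruses ERVL: they have LTRs and an internal stretch, but encode no reverse transcriptase of their own. Their LTRs hold promoters, and in mouse oocytes and early embryos LTRs of MaLR, MT and ORR1 among them, are known as alternative first exons and promoters of genes. Many copies are solitary LTRs that lie in introns or untranslated regions, so a read on an ORR1 element can come from a gene's transcript as well as from an element's own promoter. Mael encodes a factor of the piRNA pathway, which keeps retrotransposons silent in male germ cells.

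The deposited value per repeat name is a normalised read count, scaled so that the 75th percentile over names is 484 in every library. Since every value was a whole multiple of 1 step per library, the reads behind it were recovered. Reads on repeats numbered between 6021800 and 7282171 per library in TOTAL, 3045169 and 3880641 in INPUT, 1712212 and 3512997 in BO, and 1384904 and 2003193 in IP. ORR1 names took 41723 to 107338 of these reads per library, and all 29 passed the filter on low values, a mean of at least 10 over 12 libraries, as did 1180 names in all. LSU rRNA took 52.1% of the reads of BO replicate 3, against 1.93% to 15.9% in the other 11 libraries, and in TOTAL the 7SL RNA held 38.1% to 51.6%, against 0.00882% to 18.7% elsewhere. Without BO replicate 3, 1 ORR1 name was higher (3.45%) and 7 were lower (24.1%) in IP than in BO by the test described below. Of all names tested, 11.4% were higher and 21.0% lower. In BO against INPUT, 4 ORR1 names were higher (13.8%) and 1 lower (3.45%), beside 16.4% and 11.0% of all names.

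The deposited tables list spermatocyte genes as abundant in TOTAL, with authors' group means of 9433 for Sycp1 and 5739 for Sycp3, both of the synaptonemal complex, and 1386 for the meiotic recombinase gene Dmc1. Genes of spermatids were low, with 30.1 for Tnp1, 22.0 for Prm1 and 11.7 for Acrv1. Genes of somatic cells were listed too, with 1591 for Sox9 of Sertoli cells and 29894 for Cyp17a1 of Leydig cells. Mael itself was listed at 0.65 in TOTAL, 0.50 in BO and at 0 in INPUT and IP. In the table of IP and BO, Sycp1 had a mean of 54865 in IP and 4494 in BO, and Dmc1 5795 in IP and 623 in BO. Somatic genes went both ways in that table, whereas all 6 of those listed had IP means below those of INPUT and of TOTAL, with no test, such as Cyp17a1 with 5007 in IP and 19062 in INPUT, and Insl3 with 90.1 in IP and 1744 in TOTAL. Sox9 had 731 in IP and 1855 in BO and Wt1, also of Sertoli cells, 1244 and 3761, whereas Amh of Sertoli cells had 39.1 and 32.9, and the Leydig cell genes Cyp17a1, Star and Insl3 had 3822 and 1326, 1932 and 1460.4, and 68.6 and 51.9. The part of the cell types in the ORR1 values was not tested. INPUT was taken from the TOTAL extract and IP and BO from INPUT, so the groups compare fractions of extract, not testes with other cell numbers. Within the level of a gene in TOTAL, the number of cells of a type and the RNA per cell cannot be told apart.

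Summed over its 29 names, ORR1 had a normalised count between 59731 and 67624 in TOTAL, 62592 and 69588 in INPUT, 66901 and 70895 in BO, and 61369 and 69940 in IP. These ranges overlap between all groups. ORR1 made up 40.1% to 42.2% of the counts of the ERVL-MaLR family in every one of the 12 libraries. As a share of all recovered reads, ORR1 held 1.02% to 1.33% in TOTAL, 2.19% to 2.37% in INPUT, 1.58% to 3.11% in BO and 3.01% to 3.58% in IP. These shares depend on the other RNAs that fill a library. The lowest BO value, 1.58%, is that of BO replicate 3, the library with the high share of rRNA.

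Within ORR1, the make-up by letter kept its order of A, D and B in all libraries, and a few letters stood apart in 1 or 2 groups. Subfamilies of letter A held 26.8% to 31.8% of the ORR1 counts per library, those of D 21.0% to 24.8%, of B 14.6% to 15.8%, of C 11.1% to 12.7% and of E 8.62% to 9.87%. Letter A was at 26.8% to 28.5% in BO and IP and at 29.4% to 31.8% in INPUT and TOTAL, and letter D was at 23.4% to 24.8% in BO and at 21.0% to 22.3% in the other groups. Letter F held 11.0% to 11.6% in IP and 8.94% to 9.61% in the other 9 libraries, so the groups did not overlap. Letter G, the rarest, held 2.64% to 3.28% in IP and 2.26% to 2.60% elsewhere. Internal parts held 17.9% to 18.6% of the ORR1 counts in IP and 18.6% to 22.2% in the other libraries, and IP replicate 2 lay slightly above BO replicate 3. These shares compare names within a library and do not depend on how the library was scaled, but they are not corrected for the number or length of the elements.

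**Figure D1:**
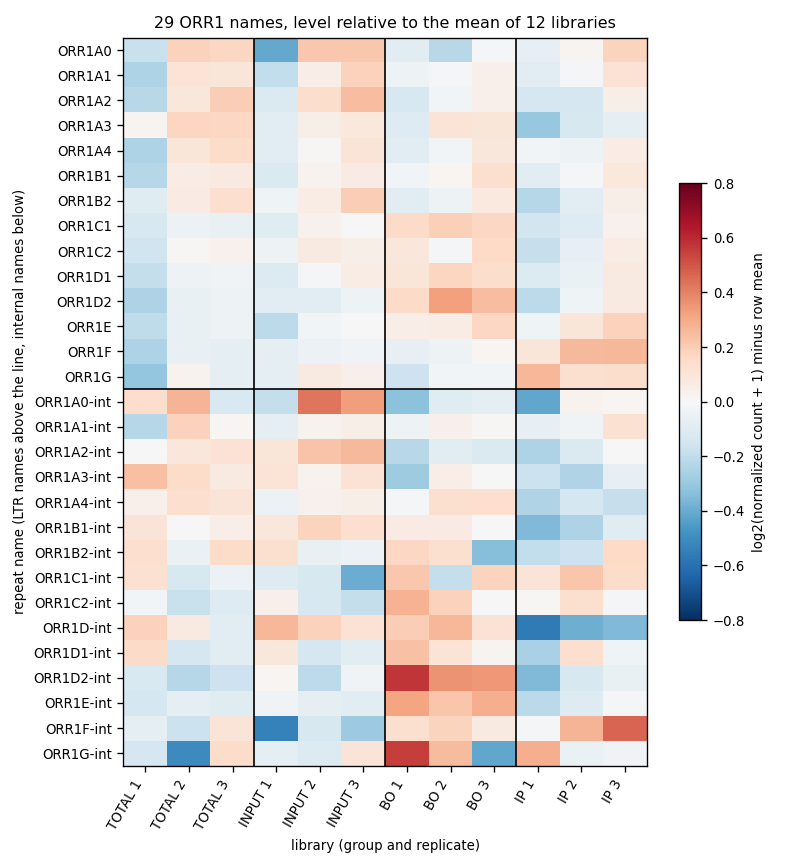
Level of each of the 29 ORR1 names (rows, LTR names above the line and internal names below) in each of the 12 libraries (columns), as log2(normalised count + 1) minus the mean of the row, in colour from -0.8 to 0.8. ORR1F is higher and ORR1D-int lower in the 3 IP libraries than in the other 9 at this scaling, and ORR1D2-int and ORR1E-int are highest in the 3 BO libraries; with library totals ORR1D-int had a log2 fold change of 1.05 against TOTAL.

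The main question was whether the antibody concentrated any ORR1 RNA. Each name was compared between groups with limma on log2(normalised count + 1), in 1 fit over the 1180 names and 12 libraries, with Benjamini-Hochberg adjustment, so a log2 fold change is on the scale of the count plus 1. A name was called when its adjusted p was under 0.05 and it differed by more than 1 on the log2 scale in either direction. No ORR1 name was called in IP vs. BO, where 8.9% of all names tested were, against INPUT, where 6.1% were, or against TOTAL, where 6.36% were. With limma at an unadjusted p under 0.05 and the same fold, the count was also 0 of 29 in each, beside 120, 84 and 81 of all 1180 names. EdgeR on the recovered reads called 0 as well, beside 8.39%, 6.53% and 6.27% of all names. The 95% confidence intervals of all 29 names lay between -0.85 and 0.57 in IP vs. BO, between -0.85 and 0.88 against INPUT, and between -0.71 and 0.86 against TOTAL, so a change of 2-fold or more was outside the interval of each name at this scaling. These comparisons share their IP libraries. When libraries were scaled to their totals instead, all 29 names were called higher in IP than in TOTAL, where 87.1% of all names tested were called, and 1, ORR1F-int, higher than in INPUT, where 12.5% were called. That scaling moved the median of all names tested from -0.05 to 1.49 against TOTAL, from -0.06 to 0.47 against INPUT and from -0.12 to 0.36 in IP vs. BO. Relative to that median, the ORR1 median was 0.04 and 0.06 against TOTAL, 0.05 and 0.06 against INPUT, and 0.06 at both scalings in IP vs. BO.

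Smaller differences passed the test at adjusted p under 0.05 alone. In IP vs. BO, 1 of 29 ORR1 names was higher (3.45%), where 11.3% of all names tested were, and 7 were lower (24.1%), where 23.2% were. In IP vs. INPUT, 3 were higher (10.3%) and 4 lower (13.8%), beside 11.0% and 16.7% of all names. In IP vs. TOTAL, 2 were higher (6.90%) and 5 lower (17.2%), beside 10.2% and 12.5% of all names. The counts of higher and lower names moved with the scaling, to 2 and 3 in IP vs. BO, 4 and 3 against INPUT and 3 and 3 against TOTAL by the median ratio, and to 0 and 0, 2 and 0, and 29 and 0 with library totals. Over all 1180 names the counts were 184 and 183, 171 and 151, and 130 and 116 by the median ratio, and 141 and 17, 147 and 19, and 1070 and 17 with library totals. The single ORR1 name higher in IP vs. BO became 2 in 5 of the other settings and 0 in 4 of 6 fits that left out 1 library, and the difference of its share from that of all names was not tested. The median log2 fold change of the 29 names was -0.06 in IP vs. BO and -0.01 against INPUT, against -0.12 and -0.06 over all names tested, and lay between -0.01 and 0.01 against TOTAL, against -0.05.

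**Figure D2:**
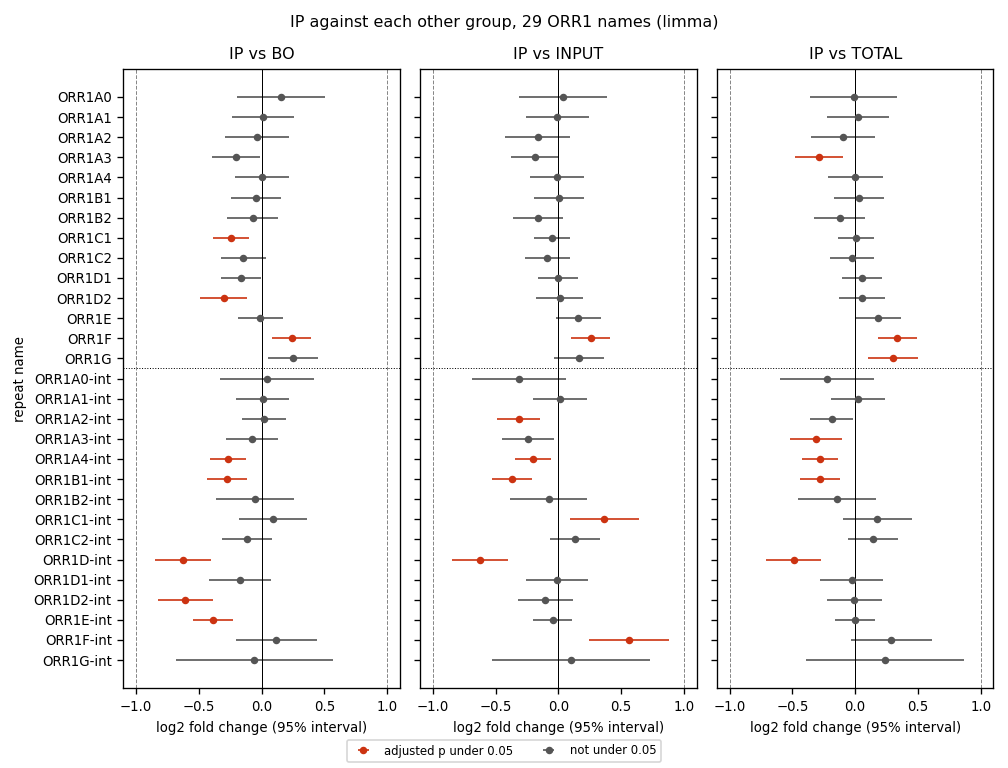
Log2 fold change of each ORR1 name (rows) in IP against BO, INPUT and TOTAL, with the 95% confidence interval from limma at the deposited scaling; red marks an adjusted p under 0.05 and dashed lines a log2 fold change of 1 and -1. No interval reaches the dashed lines, ORR1F is to the right and ORR1D-int to the left in all 3 panels; with library totals all 29 names are to the right against TOTAL.

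Related repeats were counted in the same fit. Of the 20 MT names, the other large MaLR group of the mouse, 0 were called in any of the 3 comparisons at the fold of 2, and their medians were 0.06 in IP vs. BO, 0.01 against INPUT and 0.02 against TOTAL. Of the 46 MLT and MST names tested, the older MaLR, 4, 2 and 1 were called, and of the 91 ERVL names 6, 4 and 3. In IP vs. BO the log2 fold changes ran from -0.63 to 0.25 for ORR1, -0.22 to 0.59 for MT, -2.40 to 1.31 for MLT and MST, and -1.94 to 1.68 for ERVL. Whether ORR1 differs from them was not tested.

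ORR1A0 to ORR1A4 are the LTR names of letter A, and ORR1A2 is the most abundant of them. Its normalised count was 4696, 5831 and 6299.7 in TOTAL, 5061, 6049 and 6517 in INPUT, 5025, 5394 and 5641 in BO and 4998, 4991 and 5665 in IP. The 4 ranges overlap. The log2 fold change of ORR1A2 was -0.04 in IP vs. BO (95% confidence interval -0.29 to 0.22), -0.17 against INPUT (-0.42 to 0.09) and -0.10 against TOTAL (-0.35 to 0.16), with limma adjusted p of 0.834, 0.329 and 0.617. Among the other LTR names of letter A, 1 difference passed the test. ORR1A3 was at 1455 to 1696 in IP and 1824 to 2017 in TOTAL, a log2 fold change of -0.29 (limma adjusted p = 0.0349) that was 1.26 with library totals. It lost the call without TOTAL replicate 2 or 3 or IP replicate 1 or 2, by the median ratio (adjusted p = 0.0584), with edgeR (adjusted p = 0.053) and with the compared groups only. The remaining 3, ORR1A0, ORR1A1 and ORR1A4, had log2 fold changes from -0.01 to 0.15 over the 3 comparisons, none of which passed.

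For letters B and C, the most abundant LTR names were ORR1B1 and ORR1C2. ORR1B1 had a normalised count of 4552, 5558 and 5606 in TOTAL, 4911, 5439 and 5567 in INPUT, 5254, 5372 and 5823 in BO and 5023, 5285 and 5651 in IP. Its groups overlap throughout, and its log2 fold changes in IP against BO, INPUT and TOTAL were between -0.04 and 0.03, with limma adjusted p of at least 0.744. ORR1C2 had 3589.7, 4038 and 4099 in TOTAL, 3894, 4207 and 4138 in INPUT, 4263, 3989 and 4485 in BO and 3523, 3827 and 4176 in IP, and its groups also overlap. It differed on the log2 scale by -0.15 between IP and BO (limma adjusted p = 0.191), -0.09 against INPUT and -0.03 against TOTAL. ORR1B2 did not pass in any of these comparisons. ORR1C1 was at 2873 to 2945 in BO and 2331 to 2647 in IP, a log2 fold change of -0.24 (limma adjusted p = 0.0133) that was 0.25 with library totals and did not pass by the median ratio (adjusted p = 0.153), with edgeR (adjusted p = 0.23) or without IP replicate 1 or 2.

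ORR1D1 was the most abundant of all 29 names. Its normalised count was 7231, 8002 and 8086 in TOTAL, 7639, 8153 and 8575 in INPUT, 8809, 9293 and 9081 in BO and 7654, 7956 and 8657 in IP. All 3 BO libraries lay above all 3 IP libraries, but the difference of -0.17 (log2, IP vs. BO) did not pass (limma adjusted p = 0.0996). IP overlapped INPUT and TOTAL, with log2 fold changes of -0.01 and 0.06. Its sister name ORR1D2 was at 4972 to 5609.8 in BO and 3857 to 4691 in IP, and its log2 fold change of -0.30 passed at the deposited scaling (limma adjusted p = 0.0153), not by the median ratio (adjusted p = 0.0893) or with edgeR (adjusted p = 0.132), and was 0.19 with library totals. It was also lost without BO replicate 2 or IP replicate 1. ORR1D2 was also higher in BO than in INPUT, where it was at 4219 to 4335 (log2 fold change 0.31, limma adjusted p = 0.0155), a call lost without INPUT replicate 2 or BO replicate 2. ORR1E, the sole LTR name of its letter, had 4777, 5293 and 5364 in TOTAL, 4773, 5425 and 5530.2 in INPUT, 5727, 5736 and 6179 in BO and 5375, 5893 and 6272 in IP. Its log2 fold changes were -0.01, 0.16 and 0.18 in IP against BO, INPUT and TOTAL, with limma adjusted p of 0.936, 0.182 and 0.134.

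ORR1F was the only ORR1 name that was higher at adjusted p under 0.05 in IP than in each of the other 3 groups, and it was so by a factor of about 1.18 to 1.26. Its normalised count was 5253, 5984 and 5895 in TOTAL, 5916, 6039 and 6099 in INPUT, 5960.4, 6049 and 6291 in BO and 6663, 7448 and 7496 in IP. The lowest IP value exceeded the highest of the other 9 libraries. The log2 fold change of ORR1F was 0.24 in IP vs. BO (standard error 0.07, limma adjusted p = 0.0203), 0.26 against INPUT (standard error 0.07, adjusted p = 0.0178) and 0.34 against TOTAL (standard error 0.07, adjusted p = 0.0055). The direction was the same with library totals, at 0.73, 0.80 and 1.88, but there it passed against TOTAL alone, with limma adjusted p of 0.15 against BO and 0.0903 against INPUT. With 1 library left out, the adjusted p ran from 0.00989 to 0.0771 in IP vs. BO, where 4 of 6 such fits lost the call (without BO replicate 1 or 2, or IP replicate 2 or 3), and from 0.00939 to 0.0713 against INPUT, where 4 of 6 did (without INPUT replicate 1 or 2, or IP replicate 2 or 3). Without BO replicate 3, ORR1F kept its call in IP vs. BO. In IP vs. TOTAL it passed in all 6. Within each library, ORR1F exceeded ORR1A2 by 0.40 to 0.58 on the log2 scale in IP and had a difference of -0.10 to 0.25 from it in the others. Set against ORR1E in place of ORR1A2, the groups overlapped, at 0.26 to 0.34 in IP and 0.03 to 0.31 in the others, where INPUT replicate 1 had the highest value.

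ORR1G, the least abundant letter but a name of middle level among the 29, was also above 0 in all 3 comparisons of IP. Its normalised count was 1332, 1687 and 1569 in TOTAL, 1564, 1737 and 1703 in INPUT, 1473, 1630.1 and 1631 in BO and 1986, 1807 and 1825 in IP. Here too no other library reached the lowest IP value. On the log2 scale the difference was 0.25 between IP and BO (limma adjusted p = 0.0549), 0.17 against INPUT (adjusted p = 0.202) and 0.30 against TOTAL (adjusted p = 0.0365). Only the last passed, and it was lost in 5 of 6 fits that left out 1 library, all but the one without TOTAL replicate 2, and with the compared groups only.

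**Figure D3:**
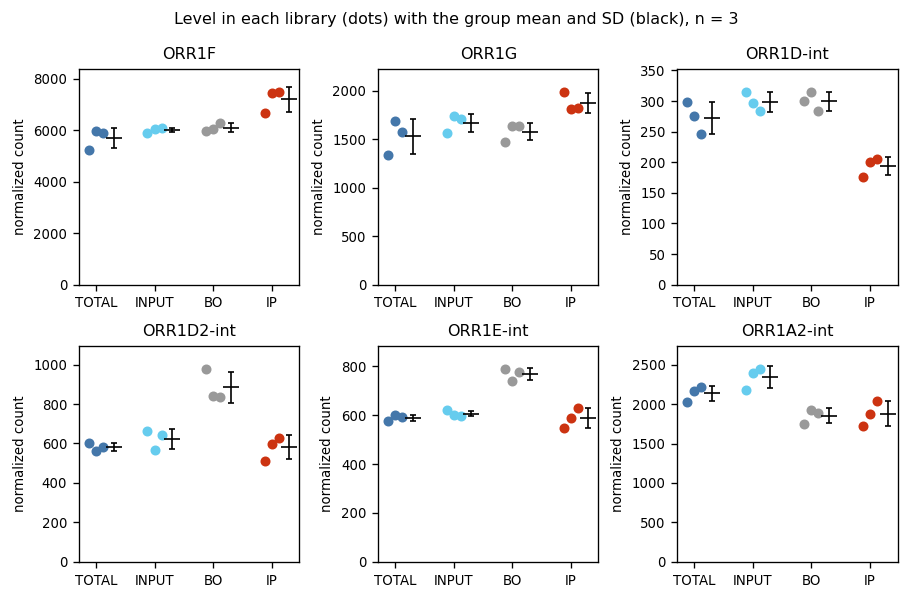
Normalised count (vertical axes from 0) of ORR1F, ORR1G, ORR1D-int, ORR1D2-int, ORR1E-int and ORR1A2-int in each library (dots) with the mean and SD of each group of 3 (black). IP lies apart from the other groups for ORR1F, ORR1G and ORR1D-int, BO lies above the others for ORR1D2-int and ORR1E-int, and both BO and IP lie below INPUT for ORR1A2-int, all at the deposited scaling (with library totals ORR1D-int turned against TOTAL, ORR1E-int in IP vs. BO and ORR1A2-int in IP vs. INPUT).

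Of the 15 internal names, 5 were lower and 0 higher in IP vs. BO at adjusted p under 0.05, 4 lower and 2 higher against INPUT, and 4 lower and 0 higher against TOTAL. The shares lower were 33.3%, 26.7% and 26.7% of the internal names, beside 23.2%, 16.7% and 12.5% of all names tested, and the shares higher 0%, 13.3% and 0%, beside 11.3%, 11.0% and 10.2%. Internal names lower with library totals numbered 0 in each of these comparisons, beside 1.44%, 1.61% and 1.44% of all names tested. ORR1D-int, chosen after its values were seen, as were the other internal names described with values besides ORR1A2-int, was the name with the log2 fold change farthest from 0 in each comparison of IP. It is a name of low counts, with 120 to 481 reads per library. Its normalised count was 298, 275 and 246 in TOTAL, 315, 297 and 283 in INPUT, 299.8, 315 and 284 in BO and 176, 199.7 and 205 in IP. Each IP library lay below each of the other 9. The log2 fold change of ORR1D-int was -0.63 in IP vs. BO (standard error 0.10, limma adjusted p = 0.000549), -0.62 against INPUT (standard error 0.10, adjusted p = 0.000949) and -0.49 against TOTAL (standard error 0.10, adjusted p = 0.00513). It passed in every fit that left out 1 library, with adjusted p from 0.00121 to 0.00333 in IP vs. BO, 0.00189 to 0.00534 against INPUT and 0.00541 to 0.0225 against TOTAL, and with edgeR on the recovered reads (adjusted p = 0.00114, 0.000722 and 0.00331). With library totals the log2 fold change was -0.13, -0.08 and 1.05, so against TOTAL its sign turned with that scaling. The ratio of ORR1D-int to ORR1D1 within a library, which no scaling changes, was -5.44 to -5.32 on the log2 scale in IP and -5.04 to -4.60 in the others.

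ORR1D2-int and ORR1E-int passed the test in IP vs. BO at the deposited scaling and in neither of the other comparisons of IP. The normalised count of ORR1D2-int was 603, 559.7 and 584 in TOTAL, 662, 566 and 642 in INPUT, 977, 840.4 and 834 in BO and 512, 599 and 630.1 in IP. The 3 BO libraries stood above all others, and IP overlapped INPUT and TOTAL. On the log2 scale IP and BO differed by -0.61 (limma adjusted p = 0.000629; -0.11 with library totals), and BO and INPUT by 0.50 (adjusted p = 0.00312). The value for IP against INPUT was -0.11 (limma adjusted p = 0.484). ORR1E-int had 575, 599 and 593 in TOTAL, 620.0, 602 and 598 in INPUT, 788, 740.2 and 776 in BO and 546, 589 and 630.1 in IP, with BO again above the other groups. IP and BO differed by -0.39 on the log2 scale (limma adjusted p = 0.00146), which became 0.11 with library totals, and BO and INPUT by 0.34 (adjusted p = 0.00423). All 4 of these values passed without BO replicate 3 and in every other fit that left out 1 library. ORR1D1-int, the other internal name of letter D, had -0.17 in IP vs. BO (limma adjusted p = 0.268) and overlapping groups.

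ORR1A2-int was the most abundant internal name. Its normalised count was 2032, 2169 and 2215 in TOTAL, 2181, 2394 and 2442 in INPUT, 1746, 1928 and 1883 in BO and 1721, 1879.5 and 2039 in IP. It was lower than in INPUT in both IP and BO, with log2 fold changes of -0.32 (limma adjusted p = 0.0111; 0.23 with library totals) and -0.34 (adjusted p = 0.00724; -0.29 with library totals). IP and BO overlapped and differed by 0.02 (95% confidence interval -0.15 to 0.19).

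ORR1A4-int and ORR1B1-int were lower in IP than in every other group at the deposited scaling and not with library totals. ORR1A4-int was at 1475 to 1581 in IP, 1729 to 1915 in BO, 1692 to 1799 in INPUT and 1795 to 1915 in TOTAL, with log2 fold changes of -0.27, -0.20 and -0.28 in IP against BO, INPUT and TOTAL (limma adjusted p = 0.00684, 0.039 and 0.0095). With library totals these were 0.22, 0.34 and 1.27. ORR1B1-int was at 1263 to 1505 in IP, 1616 to 1690.3 in BO, 1716 to 1825 in INPUT and 1607 to 1732 in TOTAL, with log2 fold changes of -0.28, -0.37 and -0.28 (limma adjusted p = 0.0103, 0.00296 and 0.0168), and 0.22, 0.18 and 1.27 with library totals. In IP vs. BO neither passed by the median ratio, with adjusted p of 0.11 and 0.0726, or with edgeR, with 0.139 and 0.0974. Against INPUT, ORR1A4-int was also lost by the median ratio (adjusted p = 0.205), with edgeR (adjusted p = 0.122) and in a limma fit of the compared groups only, and the last lost ORR1B1-int against TOTAL too. With 1 library left out, ORR1A4-int lost its call against INPUT in 5 of 6 fits, all but that without INPUT replicate 1, and ORR1B1-int lost its call against TOTAL without TOTAL replicate 1 or IP replicate 1 or 2. ORR1A3-int passed against TOTAL alone, with a log2 fold change of -0.31 (limma adjusted p = 0.0346; 1.24 with library totals), a call lost without TOTAL replicate 1 or 2, or IP replicate 1 or 2, by the median ratio (adjusted p = 0.0533) and with the compared groups only.

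Internal names higher in IP passed against INPUT alone. ORR1F-int, with 97 to 260 reads per library, was at 147, 179 and 205 in IP and 101, 136 and 121 in INPUT, a log2 fold change of 0.56 (limma adjusted p = 0.0144) that was lost without INPUT replicate 1 or IP replicate 3. BO was also above INPUT for this name, at 162, 168 and 156 (log2 fold change 0.45, limma adjusted p = 0.039), and IP and BO overlapped. With 1 library left out, that BO call was kept in 1 of 6 fits, the one without INPUT replicate 2, and it was also lost with library totals, with no filter and with edgeR (adjusted p = 0.0692). ORR1C1-int was at 375 to 407 in IP and 265 to 325 in INPUT (log2 fold change 0.37, limma adjusted p = 0.0469), and this call was lost whichever library was left out and with no filter. The rarest name, ORR1G-int, rested on 11 to 57 reads per library, and its intervals were the widest, from -0.69 to 0.57 in IP vs. BO. The remaining internal names, ORR1A0-int, ORR1A1-int, ORR1B2-int, ORR1C2-int and ORR1D1-int, passed in none of the 5 comparisons.

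Between the pooled fractions and the whole extract, no ORR1 name passed the test at the deposited scaling. In INPUT vs. TOTAL, 0 of 29 names were called by limma, beside 0.339% of all names tested, and at adjusted p under 0.05 alone 0 were higher and 0 lower, beside 0.847% of all names in each direction. At an unadjusted p under 0.05 the count was also 0, beside 201 of all 1180 names, and edgeR called 0, beside 0.508%. The intervals of the 29 names lay between -0.60 and 0.76. With library totals all 29 were higher at adjusted p under 0.05, beside 78.1% of all names, and 21 were called (72.4%), beside 54.2%, and that scaling moved the median of all names tested from 0.03 to 1.03.

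Between BO and INPUT, both of which lack the antibody, 0 of 29 names were called by limma, beside 5.42% of all names tested. EdgeR called 0, beside 5.68% of all names. At an unadjusted p under 0.05 and the same fold the count was 0 as well, beside 75 of all 1180 names. At adjusted p under 0.05 alone, 4 were higher in BO (13.8%), ORR1D2, ORR1D2-int, ORR1E-int and ORR1F-int, beside 17.2% of all names, but with the replicate number as a block 8 were (27.6%), beside 17.4%. The only name lower in BO was ORR1A2-int, 1 of 29 (3.45%), beside 11.7%. None of these 5 calls held with library totals.

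The locus tables give the authors' group means of single loci, without values per library, so differences between loci are descriptions with no test. A read that fits several near-identical copies has no certain place among them, and the sources do not say whether reads with several positions were reassigned before these tables were made, so the level of a single locus is uncertain. Each of the 3 tables was scaled on its own, together with genes. They give names and numbers of loci, such as ORR1D1_20461, and neither coordinates nor strand, so no locus is placed in the genome here and no sequence is shown. Of the 31468 ORR1 loci, 11869 were at 0 in both groups of the table of IP and BO, 10152 in that of IP and INPUT, and 10265 in that of IP and TOTAL. The signal was spread thin. Only 227, 270 and 257 loci had a mean of at least 10 over both groups, and these held 23.3%, 26.5% and 25.9% of the summed IP means of ORR1. The 10 loci with the highest IP mean held 5.69% in the table of IP and BO. Internal parts were less dispersed than LTRs, as their loci with a mean of at least 10 held 43.4% of the internal IP sum and those of LTRs 17.1% of theirs.

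Among the loci with a mean of at least 10, log2((IP + 1)/(BO + 1)) was above 1 for 20 of 227 (8.81%), where it was for 17.3% of all repeat loci, and below -1 for 107 (47.1%), where it was for 47.7%. The median was -0.86 for ORR1 and -0.90 for all repeat loci. Against INPUT, 40 of 270 (14.8%) were above 1 and 65 (24.1%) below -1, beside 22.1% and 31.2% of all repeat loci, with medians of -0.22 and -0.25. Against TOTAL, 45 of 257 (17.5%) were above 1 and 52 (20.2%) below -1, beside 24.1% and 24.3% of all repeat loci, with medians of -0.12 and 0.01. A minimum mean of 50 left 22 ORR1 loci against TOTAL, of which 8 (36.4%) were below -1, beside 23.5% of 639 repeat loci. At a minimum mean of 10 the share of ORR1 loci above 1 was below that of all repeat loci in each table as deposited, with no test. The share of MT loci was below it too, at 10.5% against BO, 18.6% against INPUT and 23.0% against TOTAL. In the same order, MLT and MST loci had 16.7%, 27.8% and 32.7%, and ERVL loci 18.1%, 24.7% and 31.1%. When each table was centred on its median repeat locus, the ORR1 shares above 1 and below -1 were 22.9% and 23.3% for IP and BO, 21.5% and 18.9% for IP and INPUT, and 17.1% and 20.2% for IP and TOTAL, beside 30.0% and 25.7%, 26.7% and 25.1%, and 23.8% and 24.5% of all repeat loci.

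The share above 1 was set side by side for LTR and internal loci, with no test of the difference. In the table of IP and BO it was 17 of 127 LTR loci (13.4%) and 3 of 100 internal loci (3.00%), in that of INPUT 32 of 160 (20.0%) and 8 of 110 (7.27%), and in that of TOTAL 35 of 153 (22.9%) and 10 of 104 (9.62%). At a minimum mean of 5 these LTR and internal shares lay nearer, at 10.7% and 7.18%, 18.6% and 14.8%, and 23.0% and 13.3%. The shares below -1 were closer, at 48.8% and 45.0%, 23.8% and 24.5%, and 20.9% and 19.2%. Centred on the median repeat locus, the counts above 1 were 33 of 127 LTR and 19 of 100 internal loci, 40 of 160 and 18 of 110, and 35 of 153 and 9 of 104. The 3 tables share their IP libraries.

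**Figure D4:**
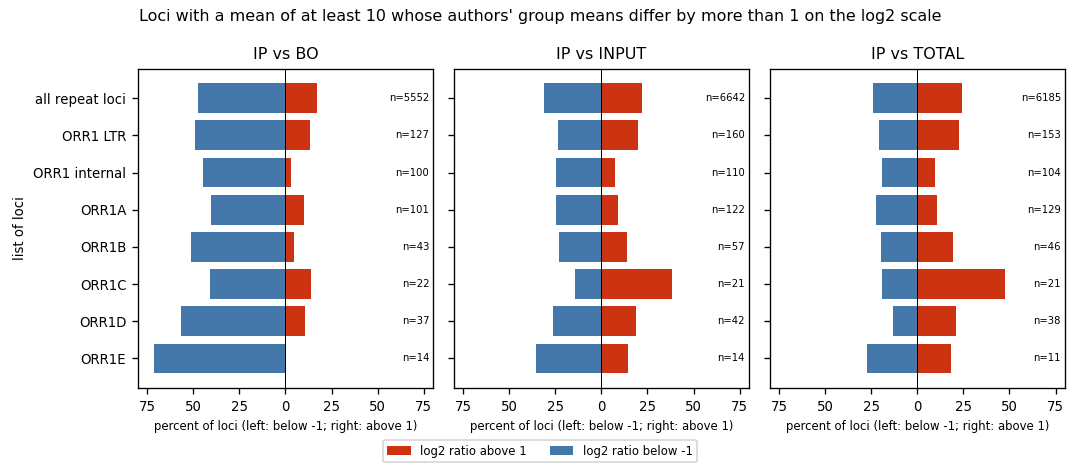
Share of loci with a mean of at least 10 whose log2 ratio of the authors' group means was above 1 (red, to the right) or below -1 (blue, to the left) in IP against BO, INPUT and TOTAL, for all repeat loci, ORR1 LTR and internal loci, and letters A to E, with the number of loci (n). Internal loci have fewer values above 1 than LTR loci in each panel, with 3 of 100 and 17 of 127 in IP vs. BO; all bars move with the scaling of a table.

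Among loci with a mean of at least 50, a few stood out, and 2 of them belonged to ORR1D1. Such loci were picked for their values, and a locus can reach a mean of 50 through 1 group alone. ORR1G_4081 did so against TOTAL, with 85.4 in IP and 15.6 in TOTAL. Below that mean, ORR1D1_8308 had log2 ratios of 2.53, 2.00 and 2.48 against BO, INPUT and TOTAL, and ORR1D1_11436 had 2.09, 2.29 and 2.92. Of letter D loci with a mean of at least 10, 10.8% were above 1 and 56.8% below -1 against BO, beside 17.3% and 47.7% of all repeat loci. These shares were 19.0% and 26.2% against INPUT, beside 22.1% and 31.2%, and 21.1% and 13.2% against TOTAL, beside 24.1% and 24.3%. ORR1D1_15655 had the highest IP mean of any ORR1 locus, 265 in IP and 308 in BO (log2 ratio -0.22). In the other tables it was at 348 in IP and 202 in INPUT (0.78), and at 346 in IP and 174 in TOTAL (0.99). It alone made 12.9% of the IP sum of ORR1D1. ORR1D1_20461 was high in IP against all groups, at 179 in IP and 36.4 in BO (2.27), 234 in IP and 53.7 in INPUT (2.11), and 234 in IP and 37.7 in TOTAL (2.60). Without it, the log2 ratio of the summed ORR1D1 means was -0.47 in place of -0.36 against BO, 0.15 in place of 0.25 against INPUT and 0.16 in place of 0.27 against TOTAL. Over all ORR1 loci the same ratio of sums was -0.51 against BO and 0.01 against both INPUT and TOTAL, so relative to it ORR1D1 stood at 0.15 against BO with the locus and at 0.04 without it.

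ORR1A2_11617 and ORR1G_4081 had a similar pattern. ORR1A2_11617 was at 99.0 in IP and 37.0 in BO (log2 ratio 1.39), with ratios of 2.02 against INPUT and 1.73 against TOTAL. ORR1G_4081 was at 65.5 in IP and 22.7 in BO (1.49), at 85.8 in IP and 17.1 in INPUT (2.26), and at 85.4 in IP and 15.6 in TOTAL (2.37). It held 19.0% of the IP sum of ORR1G in the table of IP and BO. Without it, the log2 ratio of the summed ORR1G means was -0.44 in place of -0.22 against BO, 0.28 in place of 0.50 against INPUT, and 0.24 in place of 0.48 against TOTAL. Relative to all ORR1 loci, the values against BO were 0.06 in place of 0.28. ORR1F had no such locus: ORR1F_21468, its highest, held 1.53% of its IP sum. The log2 ratio of the summed ORR1F means was -0.30 against BO, 0.12 against INPUT and 0.17 against TOTAL. Relative to all ORR1 loci, the ORR1F value against BO was 0.21.

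Other loci had low IP means. ORR1A4-int_799 was at 146 in BO and 8.21 in IP (log2 ratio -3.99), the lowest ratio among ORR1 loci with a mean of at least 50, but at 27.3 in INPUT and 10.8 in IP (-1.27). ORR1A2_4343 was low in IP against all groups, at 131 in BO and 13.1 in IP (-3.23), 130.0 in INPUT and 17.2 in IP (-2.85), and 129 in TOTAL and 17.1 in IP (-2.85). ORR1A3_2635 was low mainly against BO, with 90.1 in BO and 12.6 in IP (-2.75), and ratios of -1.13 against INPUT and -0.63 against TOTAL. Against TOTAL, ORR1A2_382 was at 173 in TOTAL and 16.3 in IP (-3.33) and ORR1A3_1796 at 232 in TOTAL and 41.1 in IP (-2.47). Without ORR1A3_1796, the log2 ratio of the summed ORR1A3 means in IP and TOTAL was -0.19 in place of -0.56.

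The internal loci ORR1B1-int_2567 and ORR1B1-int_2568 bear consecutive numbers and were both low in IP. Against INPUT they were at 174 and 174 in INPUT and 47.1 and 28.9 in IP, log2 ratios of -1.87 and -2.55. Against BO the ratios were -2.09 and -2.13, and against TOTAL -1.85 and -2.16. ORR1B1-int_2219 went the other way, with 0.53, 0.60 and 1.28 against BO, INPUT and TOTAL. ORR1A4-int_1027, the internal locus with the highest IP mean, was at 80.2 in IP and 228 in BO (-1.49), with ratios of -0.65 against INPUT and -0.20 against TOTAL.

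**Figure D5:**
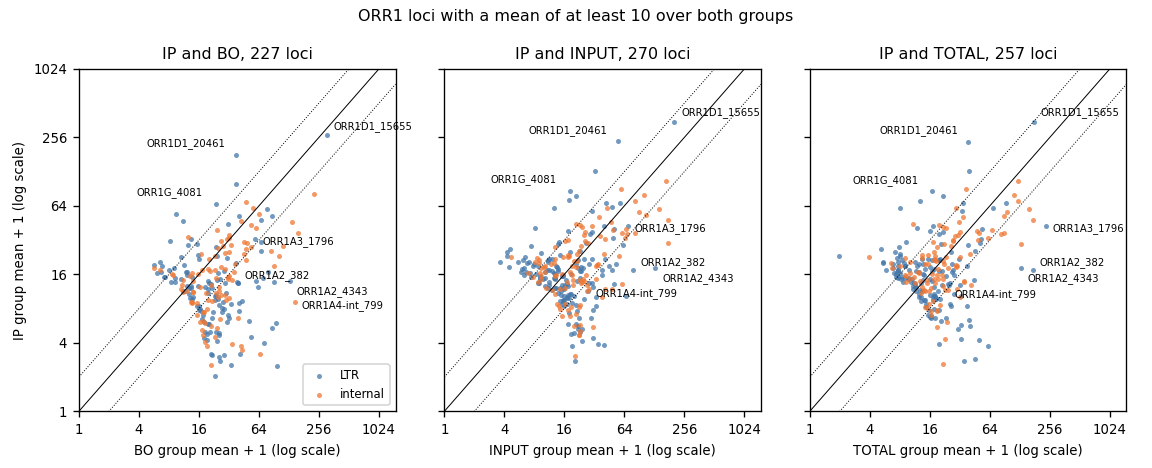
Authors' group mean plus 1 of each ORR1 locus with a mean of at least 10, in IP (vertical) against BO, INPUT or TOTAL (horizontal), on log2 axes, for LTR loci (blue) and internal loci (orange); the solid line marks equal means and dotted lines a ratio of 2. ORR1D1_20461 and ORR1G_4081 lie above the upper dotted line in all 3 panels, ORR1A2_4343 below the lower one.

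ORR1D-int has 126 listed loci, of which 2 reached a mean of 10 in the table of IP and BO, and the highest held 10.0% of its IP sum. The log2 ratio of its summed means was -1.18 against BO, -1.18 against INPUT and -0.81 against TOTAL. Leaving out the locus with the largest difference changed the ORR1D-int ratios to -1.05, -1.05 and -0.65. Relative to all ORR1 loci, the ORR1D-int values against BO were -0.68 with that locus and -0.54 without it. ORR1E-int had -0.91 against BO, and -0.69 without ORR1E-int_1179, a locus at 64.5 in BO and 2.19 in IP. Relative to all ORR1 loci, these values were -0.41 and -0.18. Its ratios of sums against INPUT and TOTAL were -0.05 and 0.02.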

How the data were processed

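RNA of Mael-/- testes was sequenced from 12 libraries in 4 groups of 3 (TOTAL, INPUT, BO and IP), taken from the sample titles, after rRNA depletion and with a stranded kit. Reads were mapped to mm10 by the authors with STAR 2.6.0c, allowing up to 100 positions per read, and for the repeat names reads with several positions were reassigned with Telescope, collapsed to repeat names and normalised with EBSeq. The strand setting of the counting and the version of the repeat annotation are not given in the sources used here. The deposited values per repeat name are this normalised signal, a read count divided by a library factor that sets the 75th percentile to 484. The authors' locus tables (DESeq2 1.24.0 per the submitters' processing notes) hold group means of normalised signal for genes and repeat loci; whether reads were reassigned for them is not given in the sources used here. They also hold fold changes and p-values of the authors' own comparisons, which were not used. All columns of per-sample values were mapped to samples by name.

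Reads were recovered from the step between values, and 100% of the values were whole within 0.1 reads. With 1384904 to 7282171 reads per library, ORR1 rested on 41723 to 107338 reads, and intervals cover the spread between libraries only. Names with a mean of at least 10 were tested with limma 3.58.1 (R 4.3.3) on log2(value + 1), with a mean-dependent variance trend, 4 groups in 1 fit and Benjamini-Hochberg adjustment over 1180 names, after the script was tested on simulated data. Of the 781637 repeat loci, those with a mean of at least 10 over both groups were described by log2((IP mean + 1)/(other mean + 1)), with 298 entries listed more than once counted once. Alternatives were a pseudocount of 0.1 or 10, no filter or a mean of at least 100, library totals, the median ratio, compared groups only, the replicate number as a block, edgeR 4.0.16 (quasi-likelihood, TMM) on the recovered reads, and each library left out. INPUT was fractionated from TOTAL, and same-numbered libraries of these groups had correlations of deviations of 0.629, 0.339 and 0.321. TOTAL replicate 2 with INPUT replicate 3 had 0.331, and TOTAL replicate 3 with INPUT replicate 2 had 0.243. These values do not settle the pairing of replicates 2 and 3. The main fit had no block, and the numbers were used only in the fit with the replicate block. For loci the alternatives were a minimum of 5 or 50, a pseudocount of 0.1 or 10, and centring.

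Named in full were the LTR name with the highest mean of each letter, the most abundant internal name and any ORR1 name called past the fold (none was), and, among loci with a mean of at least 50, the 3 highest and 3 lowest log2 ratios per table, plus the 6 loci with the highest IP mean against BO. Other names and loci given with values were chosen after their values were seen. The members and lists were chosen with earlier results of these data known. Figures were drawn with matplotlib 3.10.9 (Python 3.11.15).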

Additional observations from a re-analysis of the deposited data

How the results depend on the processing

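The scaling of the libraries changed the most calls. Scaling to library totals turned the sign of 38 of 95 log2 fold changes (19 names in 5 comparisons), 23 of which passed at adjusted p under 0.05 at one of the scalings. No other alternative turned a value that passed at either setting. Values that passed at neither setting turned in 87 of 969 cases, over all alternatives. At library totals, ORR1 names called past the fold numbered 0 for IP against BO, 1 against INPUT, 29 against TOTAL, 21 in INPUT vs. TOTAL and 0 in BO vs. INPUT, and at adjusted p under 0.05 there were 0 higher and 0 lower in IP vs. BO, 0 lower in IP vs. INPUT, 29 higher and 0 lower in IP vs. TOTAL, 29 higher in INPUT vs. TOTAL, and 0 higher and 0 lower in BO vs. INPUT. In IP vs. BO, 2 names were higher with a mean of at least 100, by the median ratio, with the compared groups only, with the replicate block and with edgeR, and 3 were lower by the median ratio and with edgeR. Of all names, 10.7% to 15.6% were higher at those settings, and 15.5% and 14.8% were lower by the median ratio and with edgeR. In IP vs. TOTAL, 3 were lower by the median ratio, beside 9.83% of all names. With the compared groups only, 1 was higher and 2 lower there, beside 6.61% and 7.88% of all names. The causes of these shifts were not tested. With each library left out, names higher and lower ranged from 0 to 1 and 5 to 8 in IP vs. BO. Of all names, 8.98% to 11.4% were higher and 18.1% to 23.4% lower. Against INPUT the counts were 0 to 2 and 3 to 5, beside 7.29% to 8.98% and 12.2% to 16.4% of all names. Against TOTAL they were 1 to 2 and 2 to 5, beside 6.1% to 8.14% and 8.47% to 11.9%. In BO vs. INPUT they were 3 to 4 and 1 to 2, beside 11.8% to 16.4% and 8.64% to 11.0%.

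The 23 values were as follows at library totals. In IP vs. TOTAL they became 1.45 for ORR1A2, 1.36 for ORR1A2-int, 1.26 for ORR1A3, 1.24 for ORR1A3-int, 1.27 for ORR1A4-int, 1.27 for ORR1B1-int, 1.52 for ORR1C2, 1.05 for ORR1D-int, 1.54 for ORR1D2-int and 1.54 for ORR1E-int. In IP vs. BO they became 0.22 for ORR1A4-int, 0.22 for ORR1B1-int, 0.25 for ORR1C1, 0.19 for ORR1D2 and 0.11 for ORR1E-int. In IP vs. INPUT they became 0.23 for ORR1A2-int, 0.34 for ORR1A4-int and 0.18 for ORR1B1-int, and in INPUT vs. TOTAL 0.90 for ORR1A3, 0.93 for ORR1A3-int, 0.92 for ORR1A4-int, 0.81 for ORR1C1-int and 0.72 for ORR1F-int.

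Of the 27 values at adjusted p under 0.05, 14 were kept whichever library was left out, 16 at every other setting but library totals and 2 at all of those other settings. Libraries of the same number were not shown to pair. Only in TOTAL and INPUT did all 3 same-number correlations of deviations exceed 0.1, and there TOTAL replicate 2 with INPUT replicate 3 had 0.331. Over all groups 8 of 18 same-number correlations exceeded 0.1 (range -0.142 to 0.629). Libraries correlated best with their own number in 18 of 36 cases, a hint from the data only. With the replicate block, 2 names were higher and 9 lower in IP vs. BO (6.9% and 31.0%, beside 12.5% and 25.7% of all names). Against INPUT 4 were higher and 6 lower (13.8% and 20.7%, beside 12.7% and 18.9%). Against TOTAL 3 were higher and 6 lower (10.3% and 20.7%, beside 10.8% and 15.3%). In BO vs. INPUT 8 were higher in place of 4 (27.6%, beside 17.4% of all names). The block left INPUT vs. TOTAL at 0 higher and 0 lower, beside 2.97% and 2.71% of all names.

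For loci, a pseudocount of 10 gave shares above 1 and below -1 of 2.64% and 28.6% against BO, 6.30% and 13.7% against INPUT, and 6.61% and 10.9% against TOTAL, beside 10.8% and 33.2%, 13.1% and 17.5%, and 14.6% and 13.8% of all repeat loci. Centring on the median repeat locus gave 22.9% and 23.3% against BO and 21.5% and 18.9% against INPUT, beside 30.0% and 25.7%, and 26.7% and 25.1%, of all repeat loci. A minimum mean of 50 gave 36.4% below -1 against TOTAL, beside 23.5% of all repeat loci, from 22 ORR1 loci. Group means carry no replicate error, and ORR1G-int, with 11 to 57 reads per library, is the name that depth limits most.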
